A study of Mus musculus with 8 samples.

Results

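The 10 genes described here encode subunits of the mouse SWI/SNF (BAF) chromatin remodeling complexes. They were listed by gene name, with earlier results of these data known, and are 10 of the 37980 genes in the expression table. They are the ATPases Smarca4 and Smarca2, the core subunits Smarcc1, Smarcc2, Smarcb1, Smarcd1, Smarcd2 and Smarce1, and the ARID subunits Arid1a and Arid2. RNA was sequenced from multipotent progenitors (MPPs) of the bone marrow of C57BL/6 mice, with 4 NA libraries and 4 WT libraries of 1000 sorted cells each. NA mice carried NA LSL/+ and Vav-Cre. They express NUP98-HOXA10hd, a fusion of the nucleoporin NUP98 with the DNA-binding homeodomain of HOXA10, once Vav-Cre, which is active across the blood lineages, has removed a stop cassette. WT cells came from WT mice, whose CD45 allele the paper does not give for these libraries. It names age-matched WT mice for its cell cycle experiment. The ages, the number of mice behind the libraries and whether the WT mice carried Cre are not given in the sources used here, so p-values measure the spread between these libraries, which may be technical. Cells of both groups passed the gate Lin-CD48-ckit+Sca1+CD135+CD150-. Libraries are named NA1 to NA4 and WT1 to WT4.

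SWI/SNF complexes use the energy of ATP to slide or evict nucleosomes and so open promoters and enhancers to transcription factors. Each complex holds a single ATPase, either SMARCA4 (BRG1) or SMARCA2 (BRM), which is built onto a scaffold of SMARCC subunits together with SMARCD subunits and, outside the GBAF complex, SMARCB1 and SMARCE1. The assemblies are told apart by their own subunits, with ARID1A or ARID1B in the BAF complex, ARID2 and PBRM1 in the PBAF complex, and BRD9 with BICRA or BICRAL in the GBAF complex. In blood, Smarca4 and Smarcd2 are known for their parts in the differentiation of myeloid cells, and the genes for several subunits are mutated in cancers, Smarcb1 in rhabdoid tumors.

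The libraries held an estimated 3876907 to 4916988 reads each, and NA4, WT2 and WT3 were shallower than the other 5. The deposited values are normalised read counts, that is, estimated reads per gene divided by a size factor of the library. NA4 and WT4 stood apart because each lay close to a weighted sum of libraries 1 to 3 of its own group. The relative variance around that sum beyond counting error was 0.00794 in NA4 over 4803 genes and 0.00255 in WT4 over 4750 genes, where 0.0338 and 0.0304 would be reached by independent libraries. SDs, intervals and p-values over all 8 libraries treat these as independent and may be too small. Results are therefore also given without NA4 and WT4. Hoxa10, part of which is in the fusion, had a normalised read count of 324 ± 32.0 in NA and 139 ± 8.0 in WT (mean ± SD, n = 4 each here and throughout). Nup98, the other gene of the fusion, was at 85.0 ± 10.9 in NA and 72.2 ± 12.1 in WT and was not called (limma adjusted p = 0.443). The 4 gate genes Kit, Ly6a, Flt3 and Cd34 summed to 7337 to 7655 in NA and 7486 to 7891 in WT. Of these, Ly6a (Sca1) was lower in NA, 1277 ± 88.5 against 1548 ± 63.3 (limma adjusted p = 0.0257). Ly6a was not called without NA4 and WT4 (limma adjusted p = 0.163). Cd48, on which cells were gated as negative, was at 17.7 ± 5.36 in NA and 56.1 ± 21.3 in WT (limma adjusted p = 0.00711). Without NA4 and WT4 it was not called (limma adjusted p = 0.0675). Slamf1 (CD150), likewise gated as negative, was at 19.7 ± 19.4 in NA and 20.9 ± 6.51 in WT (limma adjusted p = 0.570). Some markers of other cell types were at 0 in all 8 libraries, among them Cd3e, Cd3g, Cd3d, Bcl11b, Ms4a1, Pax5, Elane, Mcpt8, Fcer1a and Cdh5, and others of the same lists were not. T cell markers summed to 112 to 187 in NA and 162 to 294 in WT, all of it Lck, which was lower in NA (limma adjusted p = 0.0370). Lck was not called without NA4 and WT4 (limma adjusted p = 0.241). B cell markers summed to 101 to 239 in NA and 182 to 269 in WT, mostly Cd79b. The 7 long-term stem cell markers, 4 higher and 1 lower in NA, summed to 6324 to 7148 in NA and 4297 to 4401 in WT. The largest part was Hlf, at 4185 ± 259 in NA and 2198 ± 101 in WT. Tek was the lower gene, and Mecom and Vwf were not called. Without NA4 and WT4, Procr (limma adjusted p = 0.0772) and Ctsf (limma adjusted p = 0.151) were not called, while Hlf, Mllt3 and Tek were. Erythroid markers summed to 33.1 to 63.0 in NA and 135 to 215 in WT, and neutrophil and monocyte markers to 3120 to 3362 in NA and 3558 to 4575 in WT, with Prtn3 at 1371 to 1677 and 1711 to 2291. The 10 genes of the response to tissue dissociation, of which 8 were higher, summed to 40029 to 46093 in NA and 5228 to 15852 in WT. Xist was 1.92 ± 1.0 in NA and 1104 ± 173 in WT, and Ddx3y 515 ± 175 in NA and at most 0.888 in WT, so that sex and genotype cannot be told apart in any result below. The part of the marker lists in the members' values was not tested. In bulk RNA, fewer cells of a type and less RNA per cell cannot be told apart.

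Promoter sequence upstream of the start is shown for 3 core subunits: Smarcc1 and Smarcc2, the paralogues of the scaffold, and Smarcb1, which had the lowest log2 change of the 10 genes. The sequences are from RefSeq on GRCm38.p6, 5′ to 3′ on the strand of the gene, with CCGGAA, the ETS core motif, in capitals. Smarcc1 is given at chr9:110131774-110131979 on the plus strand (206 bases), inside the annotated span of the gene but outside its exons and ending where its principal transcript starts. Smarcc2 is given at chr10:128458986-128459235 on the plus strand (250 bases) and Smarcb1 at chr10:75921618-75921864 on the minus strand (247 bases), both outside any annotated gene.
Smarcc1: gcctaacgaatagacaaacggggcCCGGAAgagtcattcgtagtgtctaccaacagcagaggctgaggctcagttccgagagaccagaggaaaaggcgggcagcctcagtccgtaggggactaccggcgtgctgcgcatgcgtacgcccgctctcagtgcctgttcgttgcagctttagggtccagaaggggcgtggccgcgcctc
Smarcc2: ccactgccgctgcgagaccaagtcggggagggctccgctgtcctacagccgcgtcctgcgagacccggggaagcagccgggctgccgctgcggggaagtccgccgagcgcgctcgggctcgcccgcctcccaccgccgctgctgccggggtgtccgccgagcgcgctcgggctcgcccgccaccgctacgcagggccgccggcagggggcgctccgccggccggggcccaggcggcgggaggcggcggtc
Smarcb1: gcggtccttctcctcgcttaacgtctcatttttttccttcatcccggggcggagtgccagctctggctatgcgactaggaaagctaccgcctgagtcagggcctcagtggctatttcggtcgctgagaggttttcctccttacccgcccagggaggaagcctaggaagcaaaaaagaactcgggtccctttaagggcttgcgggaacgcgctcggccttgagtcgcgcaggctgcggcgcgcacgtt
The Smarcc1 stretch holds CCGGAA, and neither of the other two does. RefSeq promoters matched 8 of the 10 members, all but Arid2 and Smarce1. Motifs were searched on both strands in the 250 bases before the RefSeq start, in 1 promoter for each of these 8, the one nearest to the start of the principal transcript, and in all 32536 promoters. CCGGAA was found in Smarca2, Smarcc1 and Smarcd1 and in 12.1% of all promoters, and also in a further Arid1a promoter at chr4:133756770-133757019 that was not among the 8. In Smarca2 and Smarcd1 the match lies past the start of the principal transcript, which is 108 and 158 bases before the RefSeq start. TTTAT, a core of posterior HOX proteins such as HOXA10, was found in Smarcd1 and Smarcd2 and in 37.2% of all promoters. The Smarcd2 window lies inside the gene, since its RefSeq start is 5340 bases from that of the principal transcript, so that it does not describe the sequence before the gene. TGACAG, a MEIS core, was found in Smarca2 and in 15.8% of all promoters, and TGATTTAT, a joint PBX and HOX site, in none of the 8 and in 0.836% of all promoters. TTTAT is contained in TGATTTAT. GC content in these 250 bases was 63.6% for Smarcc1 with 21 CpG, 80.8% for Smarcc2 with 40 CpG and 59.6% for Smarcb1 with 21 CpG, beside medians of 52.4% and 6.0 CpG over all promoters. The motif matches are a description of letters in these windows and were not tied to the values below.

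All 10 members were detected in all 8 libraries and passed the filter on low values. In NA MPPs Smarcc1 rose, Smarcb1 and Smarcd2 fell, and the other 7 did not pass the test, by limma on log2(normalised read count + 1) with Benjamini-Hochberg adjustment over 11451 genes at a threshold of 0.05. Among all genes tested, 17.9% were called, 10.1% as higher and 7.87% as lower in NA. The members' median log2 change was 0.04, beside -0.01 over all genes tested, with 5 members above 0 and 5 below. Without NA4 and WT4, 4.58% of all genes were called and, of the members, Smarcc1 alone. With the trend of fold change on GC content removed, 17.1% of all genes were called and 4 members, namely Smarcb1, Smarcc1, Smarcc2 and Arid1a. Groups did not overlap for Smarcc1 and Smarcc2, higher in NA, and for Smarcd2, lower in NA. Over all genes tested this held for 22.0%, 11.5% higher and 10.5% lower.

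**Figure D1:**
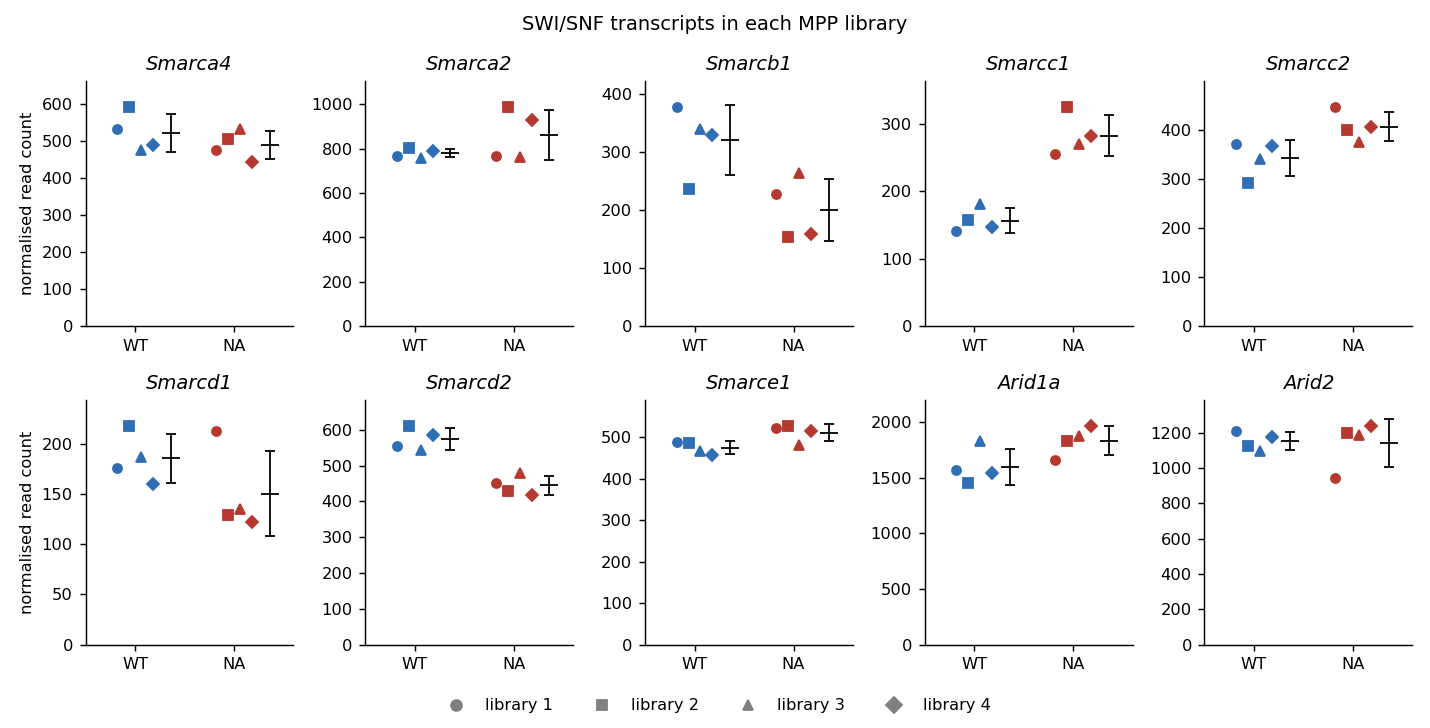
Normalised read count of the 10 SWI/SNF members in each of the 4 NA and 4 WT libraries, with the mean and SD of each group as a dash and bar. The NA libraries of Smarcc1 all lie above the WT libraries, those of Smarcd2 all lie below, and for Smarcb1 NA3 at 263 lies above WT2 at 236.

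Of the ATPases, Smarca4 (ENSMUSG00000032187, chr9:21616169-21704230, plus strand, mm10 as for all genes below) did not pass the test. Its normalised read count was 476, 508, 534 and 445 in NA1 to NA4 and 534, 592, 477 and 489 in WT1 to WT4. The groups overlapped, with WT2 the highest and NA4 the lowest library. The log2 change was -0.09 ± 0.10 (SE; 95% interval -0.31 to 0.13; adjusted p = 0.588). Smarca2 (ENSMUSG00000024921, chr19:26605050-26778322, plus strand), the alternative ATPase, was at 767, 986, 763 and 929.5 in NA1 to NA4 and at 768, 801, 759 and 787 in WT1 to WT4. NA2 and NA4 lay above all WT libraries, while NA1 and NA3 lay within the narrow WT range. The Smarca2 log2 change was 0.14 ± 0.10 (95% interval -0.08 to 0.35; adjusted p = 0.366). A p above the threshold does not show that the ATPases had equal levels in both groups, and the intervals give the sizes left.

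Smarcc1 (ENSMUSG00000032481, chr9:110117708-110240178, plus strand), a scaffold subunit around which the complex is assembled, had the largest absolute change of the 10 members. It was at 255, 324, 269.6 and 281 in NA1 to NA4 and at 140.3, 157, 181 and 146 in WT1 to WT4. The lowest NA library was above the highest WT library. Means were 282 ± 29.9 in NA and 156 ± 17.9 in WT, 1.81-fold higher in NA, with a log2 change of 0.85 ± 0.14 (95% interval 0.56 to 1.14; adjusted p = 0.000847). The gene was called with each library left out in turn, with adjusted p from 0.000929 to 0.00545, and without both NA4 and WT4, with a log2 change of 0.82 (adjusted p = 0.0254). Among the 5 deep libraries alone the log2 change was 0.97, and among the 3 shallow ones 0.73. An upstream exon of Smarcc1 shares 123 bases with Dhx30 on the opposite strand, and strand use in the counting is not given in the sources used here. Dhx30, an RNA helicase, moved the other way, with 378 ± 82.6 in NA and 523 ± 24.2 in WT, a log2 change of -0.49 (adjusted p = 0.0205). Its groups overlapped, with NA3 at 500 and WT4 at 496. The Dhx30 call was lost without NA2, NA4 or WT1, and without both NA4 and WT4 (limma adjusted p = 0.142).

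Smarcc2 (ENSMUSG00000025369, chr10:128459248-128490482, plus strand), the paralogue of Smarcc1, was at 446, 399, 376 and 405 in NA1 to NA4 and at 371, 292, 342 and 368 in WT1 to WT4. All NA libraries lay above all WT libraries, though NA3 and WT1 were only just apart. Its log2 change of 0.25 ± 0.11 (95% interval 0.01 to 0.49) did not pass the test (adjusted p = 0.145), and with the GC trend removed it was 0.36 and passed (adjusted p = 0.0488).

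Smarcb1 (ENSMUSG00000000902, chr10:75896769-75921617, minus strand), a core subunit that contacts the nucleosome and is lost in rhabdoid tumors, was lower in NA. It was at 228, 153, 263 and 158 in NA1 to NA4 and at 377, 236, 339 and 330.3 in WT1 to WT4. The groups overlapped at NA3 and WT2, and the spread within each group was wider than for Smarcc1. The mean of 201 ± 53.8 in NA against 321 ± 60.3 in WT gave a log2 change of -0.69 ± 0.19 (95% interval -1.10 to -0.28; adjusted p = 0.0230). The call was lost without NA2, NA4, WT1, WT3 or WT4, with adjusted p of up to 0.0850, and without both NA4 and WT4, where the log2 change was -0.57 (adjusted p = 0.185). It was also lost without the filter on low values (adjusted p = 0.0758) and without the variance trend (adjusted p = 0.0763).

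Smarcd2 (ENSMUSG00000078619, chr11:106263179-106272972, minus strand), a core subunit known for its part in granulocyte maturation, was also lower in NA. It was at 453, 429.6, 480.1 and 419 in NA1 to NA4 and at 554, 612, 543 and 586 in WT1 to WT4. The groups did not overlap and the libraries of each were close together. The log2 change was -0.36 ± 0.09 (95% interval -0.57 to -0.16; adjusted p = 0.0172), with means of 445 ± 27.0 and 574 ± 31.1. The call was lost without NA4 (adjusted p = 0.0616) or WT4 (adjusted p = 0.0657), and with both left out the log2 change was -0.33 (adjusted p = 0.184). With the GC trend removed it was -0.22 (adjusted p = 0.0958). The sums of the neutrophil and monocyte markers, given above, were likewise lower in NA. Of the 4 tested markers, Mpo and Prtn3 were called lower, and Lyz2 and S100a9 were not called. With the GC trend removed, neither Mpo (limma adjusted p = 0.0686) nor Prtn3 (limma adjusted p = 0.109) was called. The same held without NA4 and WT4 (limma adjusted p = 0.143 for Mpo and 0.0881 for Prtn3). The part of these markers in the Smarcd2 values was not tested.

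Smarcd1 (ENSMUSG00000023018, chr15:99702129-99713991, plus strand), a paralogue of Smarcd2 that links the complex to transcription factors, was at 214, 129.7, 136 and 123 in NA1 to NA4 and at 177, 219, 188 and 161 in WT1 to WT4. NA1 was high among the WT values, and the other 3 NA libraries lay below every WT library. The log2 change was -0.33 ± 0.18 (95% interval -0.73 to 0.06; adjusted p = 0.230), and without NA1 it was -0.51 and passed the test (adjusted p = 0.0357). Smarcd1 had the fewest estimated reads of the members, 104 in its lowest library, where counting error alone was 9.81%. Smarce1 (ENSMUSG00000037935, chr11:99209047-99231017, minus strand), a core subunit with a DNA-binding HMG domain, ranged from 480.1 to 527 in NA and from 456 to 487 in WT. Its groups overlapped only at NA3, and the log2 change of 0.11 ± 0.09 (95% interval -0.09 to 0.30) did not pass the test (adjusted p = 0.445). Its direction turned with the GC trend removed (-0.07).

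Arid1a (ENSMUSG00000007880, chr4:133679008-133756769, minus strand), the subunit that defines the BAF complex, had the highest normalised read counts of the members. It was at 1656, 1832, 1875 and 1965 in NA1 to NA4 and at 1564, 1452, 1829.6 and 1538 in WT1 to WT4. WT3 lay among the NA libraries and the other 3 WT libraries lay below them all. The log2 change was 0.20 ± 0.09 (95% interval 0.01 to 0.39; adjusted p = 0.131), and with the GC trend removed it was 0.35 and passed the test (adjusted p = 0.0307). Arid2 (ENSMUSG00000033237, chr15:96287518-96404992, plus strand), which defines the PBAF complex, was at 943, 1199, 1190.5 and 1240.1 in NA1 to NA4 and at 1210.0, 1128, 1095 and 1176 in WT1 to WT4. NA1 was low, and the other NA libraries overlapped with WT. The log2 change was -0.02 ± 0.10 (95% interval -0.22 to 0.19; adjusted p = 0.917), and without NA1 it was 0.07.

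**Figure D2:**
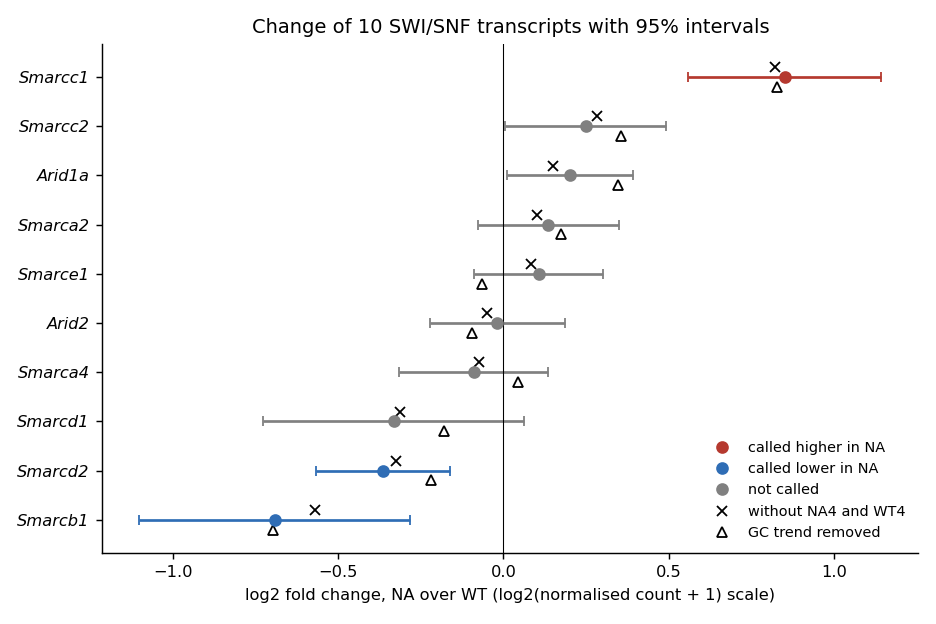
Log2 change of each member, NA minus WT, on the log2(normalised read count + 1) scale with its 95% interval from limma over 4 NA and 4 WT libraries. Crosses give the value without NA4 and WT4, and open triangles that with the GC trend removed. The intervals of Smarcc1 (0.56 to 1.14), Smarcb1 (-1.10 to -0.28) and Smarcd2 (-0.57 to -0.16) stay clear of 0 and these genes pass the adjusted threshold, while those of Smarcc2 and Arid1a stay clear of 0 without passing it.

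The spread between the 4 libraries of a group was modest for most members. NA4 and WT4 lay close to sums of the others, so independent libraries may spread more widely. The coefficient of variation of the normalised read count had a median over the members of 9.20% in NA (4.13% to 28.2%) and 10.1% in WT (2.40% to 18.8%), beside 12.4% and 10.4% over 5105 genes of like level. Smarcd1 had the highest value in NA and Smarcb1 the highest in WT, while Smarca2 had the lowest in WT.

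Paralogues or alternative subunits were compared as ratios within a library, as the log2 ratio of (normalised read count + 1), which hardly depends on how libraries are scaled. Of 4 such pairs, none passed after adjustment over the 4, by an exact two-sided permutation test over the 70 assignments of libraries to groups. The smallest possible p is 0.0286, and a lone pair at that p cannot pass once adjusted over the 4. The test therefore could not call a single changed pair, and no conclusion is drawn from none passing. The log2 ratio of Smarcc1 to Smarcc2 was -0.81, -0.30, -0.48 and -0.53 in NA1 to NA4 and -1.40, -0.89, -0.91 and -1.32 in WT1 to WT4. Every NA library had the higher ratio, with a mean of -0.53 ± 0.21 in NA and -1.13 ± 0.27 in WT, a difference of 0.60 (exact permutation p = 0.0286, adjusted p = 0.114). The log2 ratio of the ATPases, Smarca4 to Smarca2, was -0.80 ± 0.25 in NA and -0.58 ± 0.12 in WT, and the groups overlapped (exact permutation p = 0.171, adjusted p = 0.229). Arid1a to Arid2 was 0.69 ± 0.09 in NA and 0.47 ± 0.18 in WT, where WT3 at 0.74 lay above 3 of the NA libraries (exact permutation p = 0.114, adjusted p = 0.229). Smarcd1 to Smarcd2 was -1.59 ± 0.35 in NA and -1.63 ± 0.17 in WT, a difference of 0.03 (exact permutation p = 0.914, adjusted p = 0.914). Without NA4 and WT4, the Smarcc1 to Smarcc2 difference was 0.54, and 3 libraries against 3 cannot give an exact p below 0.1.

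**Figure D3:**
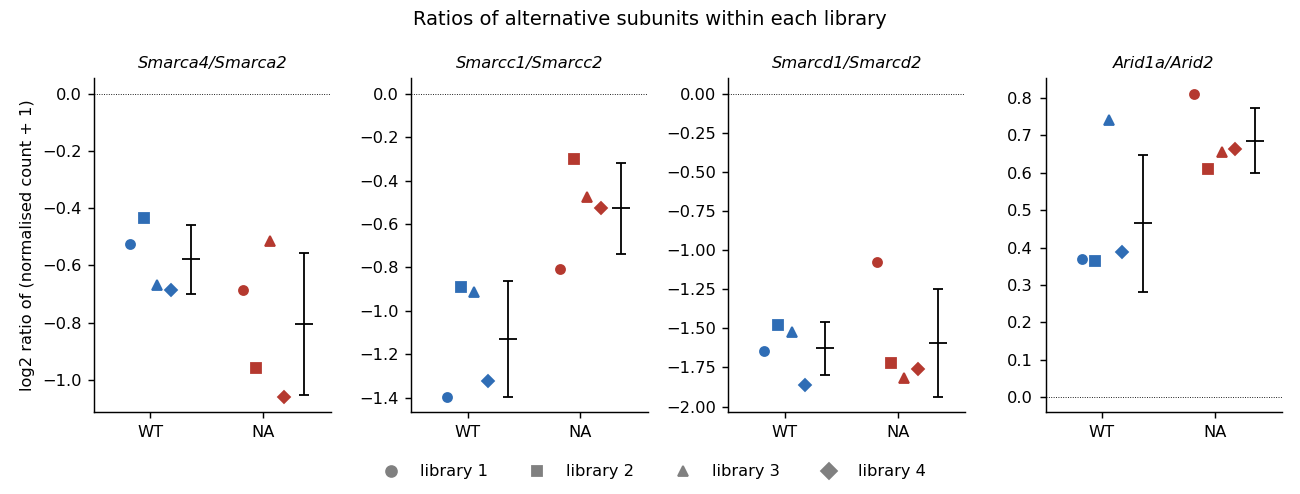
Log2 ratio of normalised read counts within each library for the 4 paralogue or alternative subunit pairs, 4 NA and 4 WT libraries each, with the mean and SD of each group as a dash and bar. The groups do not overlap for Smarcc1 to Smarcc2 (-0.81 to -0.30 in NA, -1.40 to -0.89 in WT) and overlap for the other pairs.

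Levels of different members were compared only after division by the length of the principal transcript, as normalised read count per kilobase. In WT the order of mean levels was Smarcd2 (209), Arid1a (195), Smarcb1 (193), Smarce1 (162), Arid2 (135), Smarca2 (132), Smarca4 (82.3), Smarcc2 (75.7), Smarcd1 (56.2) and Smarcc1 (27.3). Neighbours in that order overlapped between the WT libraries except for Smarce1 over Arid2, Smarca2 over Smarca4 and Smarcd1 over Smarcc1. In NA the order was Arid1a (224), Smarce1 (175), Smarcd2 (162), Smarca2 (145), Arid2 (134), Smarcb1 (121), Smarcc2 (89.7), Smarca4 (77.2), Smarcc1 (49.4) and Smarcd1 (45.5). Smarcc1, the lowest per kilobase in WT, thus lay just above Smarcd1 in NA, with the NA ranges of both overlapping. These levels depend on the length used. With all annotated exons of a gene joined, Smarcb1 in WT was at 40.4 and ninth in the order, and Smarca2 at 54.6 lay below Smarca4 at 80.8.

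**Figure D4:**
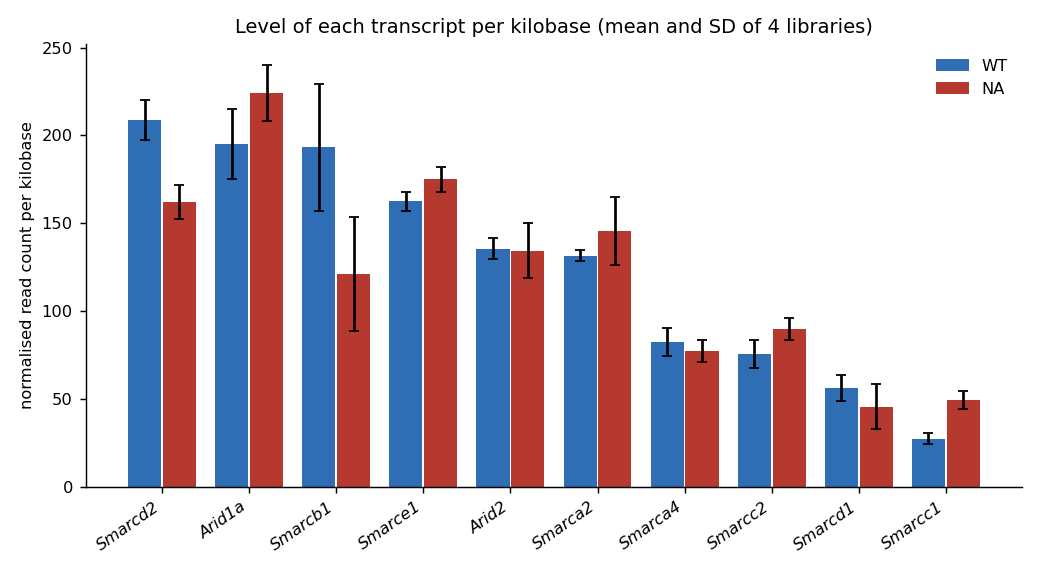
Normalised read count per kilobase of principal transcript for the 10 members, bars showing means and error bars SDs of 4 WT and 4 NA libraries, ordered by the WT mean. Smarcd2, Arid1a and Smarcb1 stand near 200 in WT and Smarcc1 is lowest at 27.3, while in NA Arid1a is highest at 224 and Smarcd1 lowest at 45.5.

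The other 20 SWI/SNF subunits, listed from textbook knowledge, were described for context, and 16 of them were tested. Pbrm1 and Phf10, both subunits of the PBAF complex, rose, Bcl7c, an accessory subunit, fell, and 13 did not pass the test. Over all genes tested 17.9% were called, 10.1% as higher and 7.87% as lower, so these counts are close to that background. The list's median log2 change was 0.17, beside -0.01 over all genes tested. Pbrm1, which binds acetylated histones, was at 891 ± 92.5 in NA and 646 ± 81.1 in WT, a log2 change of 0.47 ± 0.11 (adjusted p = 0.0112), and was called with each library left out in turn. Phf10 changed by 0.57 ± 0.16 on the log2 scale (adjusted p = 0.0241) and Bcl7c by -0.53 ± 0.15 (adjusted p = 0.0266). With 1 library left out, Phf10 was not called without NA2, NA4, WT2 or WT3 (adjusted p up to 0.0950), and its log2 change stayed at 0.49 to 0.69. Bcl7c was not called without NA1, NA4, WT1 or WT4 (adjusted p up to 0.0971), and its log2 change stayed at -0.63 to -0.44. Of the other subunits that define a complex, Arid1b of BAF had a log2 change of 0.22 ± 0.12 (adjusted p = 0.230) and Brd9 of GBAF one of -0.34 ± 0.12 (adjusted p = 0.0717), and neither passed the test, though Brd9 did without NA1 (adjusted p = 0.0286). Without NA4 and WT4, none of the 16 was called by limma and 2 had an unadjusted p under 0.05. Members and other subunits together came to 26 tested genes, with 3 higher and 3 lower, a share to be read against the same 17.9%. Dpf1, Dpf3, Actl6b and Bcl11b, subunits known from neurons, muscle or T cells, did not pass the filter, with means of at most 0.757.

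Other remodeler families were set beside the members in the same fit, where 17.9% of all genes were called, 10.1% as higher and 7.87% as lower. The share called in each family was near or below 17.9%. In the ISWI family 2 of 10 tested genes rose and none fell (median log2 change 0.23). Smarca5, an ATPase of this family, rose by 1.04 ± 0.16 on the log2 scale, from 283 ± 64.9 in WT to 578 ± 88.0 in NA (adjusted p = 0.000701). Bptf, a subunit that reads histone methylation, rose by 0.30 ± 0.08 (adjusted p = 0.0238). In the CHD family 1 of 14 rose and 1 fell (median 0.07). The ATPase Chd1 rose by 0.52 ± 0.16 (adjusted p = 0.0335), Chd3 had a log2 change of -0.82 ± 0.12, with 323 ± 54.5 in NA and 568 ± 39.7 in WT (adjusted p = 0.000491), and Chd4, the other main NuRD ATPase, one of 0.09 ± 0.13 (adjusted p = 0.659). In the INO80 and SRCAP families 1 of 13 fell, Ino80e with a log2 change of -0.46 ± 0.14 (adjusted p = 0.0354), and none rose (median -0.17). Without NA4 and WT4, Smarca5 and Chd3 were still called and the other 3 were not. Of these 3, Bptf was also not called without NA2, NA4, WT2 or WT4 (adjusted p up to 0.0698), Chd1 without any 1 of NA2, NA4, WT1, WT2 and WT3 (up to 0.125), and Ino80e without any 1 of NA1, NA4 and the 4 WT libraries (up to 0.0904).

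**Figure D5:**
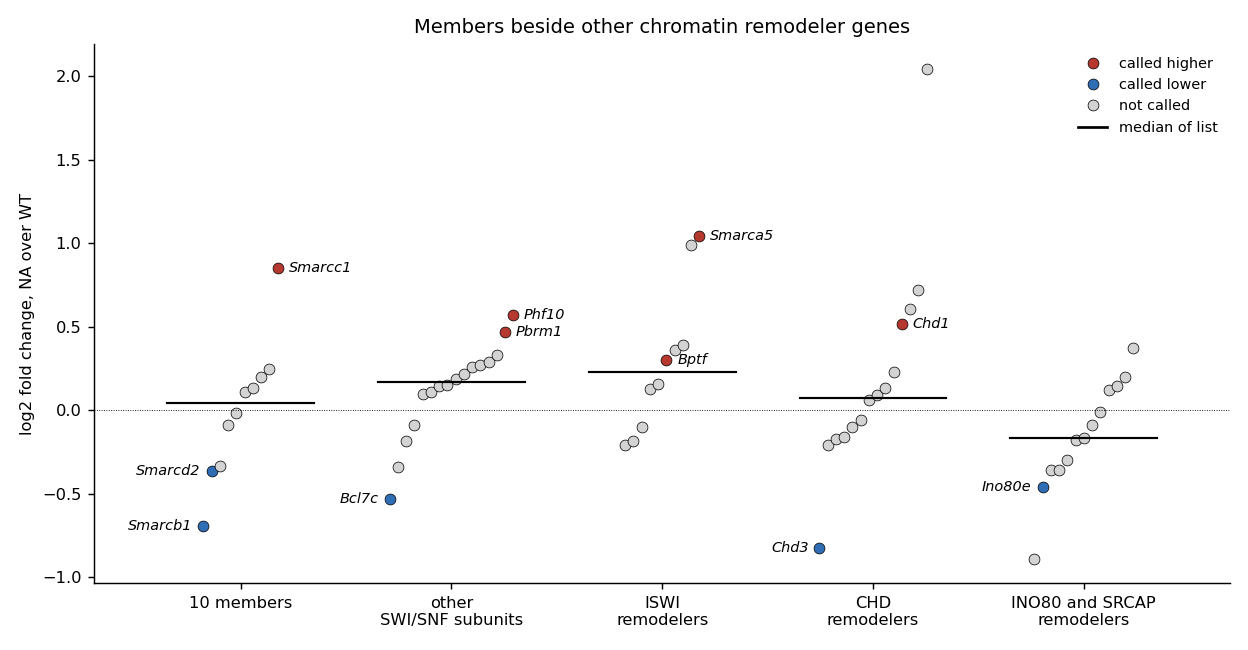
Log2 change, NA minus WT, of every tested gene in the members and the 4 other remodeler lists, with calls at adjusted p under 0.05 marked and list medians drawn. Smarca5 (1.04) and Smarcc1 (0.85) are the highest called genes, and Chd3 (-0.82) and Smarcb1 (-0.69) the lowest.

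Genes whose pattern was most like that of Smarca4 were found by Pearson's r of log2 values over the 8 libraries, as a description, since the points share genotype, depth class and, for NA4 and WT4, much of their content with other points. They were Abi3 (r = 0.946), Nol6 (0.941), Akna (0.930), Rtel1 (0.925) and Rpap1 (0.924). None of these 5 passed the test between NA and WT. Among the members, r with Smarca4 was highest for Smarcd2 (0.59) and lowest for Smarcc2 (-0.69) and Arid1a (-0.61).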

How the data were processed

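RNA was sequenced on an Illumina NextSeq 500 from amplified cDNA of sorted MPPs and Nextera XT libraries, and groups were taken from the sample titles. Per the submitters' processing notes the authors used bcl2fastq, RSEM, DESeq2 and mm10. Versions, annotation and strand use are not given in the sources used here. The table is named as raw counts, but the deposited values are a normalised signal, namely RSEM estimated counts that had been scaled by library size factors. Between 98.6% and 99.0% of the low values of a library were whole multiples of a step of 0.888 to 1.18 (tolerance 0.1 of a step). Zeros, small fractions and higher values were left out of this share. The total divided by the step gave the estimated reads. Because the values are no longer counts, they were not tested with the planned count models.

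Genes with at least 10 in at least 4 of the 8 libraries (11451 of 37980) were tested on log2(value + 1) with limma 3.58.1 in R 4.3.3, with a variance trend and no covariates, and p-values were adjusted by Benjamini-Hochberg. Fold changes are on that log2 scale, which understates the change of low genes. Ratios were tested by exact permutation in Python 3.11.15 with numpy 2.4.6. Symbols, coordinates and lengths came from GENCODE M21 (GRCm38), which named 32916 genes and 93.8% of those above 0. Amplified reads without molecular identifiers are not independent molecules, so counting errors cover counting only. Alternatives covered scaling, filters, the added constant, GC content, depth class, a replicate block and left-out libraries. The members, lists and tests were chosen with earlier results of these data known. All 10 members are named. From each other list the text names up to 4 called genes with the largest change, Arid1b, Pbrm1, Brd9, Smarca5 and Chd4, and 5 genes most like Smarca4. Dhx30 was named for its overlap with Smarcc1, and Dpf1, Dpf3, Actl6b and Bcl11b as untested, after their values were seen.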

Additional observations from a re-analysis of the deposited data

Results flagged for a closer look

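In groups of 4 libraries, the highest or lowest library was picked out where its distance from its neighbour took more of the group's range than Dixon's 95% critical value allows. Of 50 groups checked 5 were picked out, where chance gives 2.5 (1 in 20). For Smarcd1, NA1 at a normalised read count of 214 lay above the other NA libraries at 123 to 136, and the log2 ratio of Smarcd1 to Smarcd2 in NA1 was -1.08, beside -1.82 to -1.72. For Arid2, NA1 at 943 lay below the others at 1190.5 to 1240.1. Pbrm1 in WT2 was at 525, beside 680.1 to 699 in the other WT libraries. The log2 ratio of Arid1a to Arid2 in WT3 was 0.74, beside 0.36 to 0.39.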

How the results depend on the processing

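Without NA4 and WT4, 524 of all genes tested were called against 2053, and 1 member against 3. The same setting left 0 of the other SWI/SNF subunits (2 at an unadjusted p under 0.05 by limma), 1 ISWI, 1 CHD and 0 INO80 and SRCAP genes (1 unadjusted). Chosen after seeing the data, the deep libraries alone called 599 genes, 1 member, 0 other SWI/SNF subunits (3 unadjusted), 1 ISWI, 1 CHD and 0 INO80 and SRCAP genes (2 unadjusted). The 3 shallow ones, where the lone NA library is assumed to vary like the WT group, called 4 genes (1380 unadjusted), 0 members (2), 0 other SWI/SNF subunits (3), 0 ISWI (2), 0 CHD (2) and 0 INO80 and SRCAP genes (0). Leaving out 1 library gave 1125 (without NA4) to 2176 genes, 1 (without NA4 or WT4) to 4 (without NA1) members, 1 to 4 other SWI/SNF subunits, 1 to 3 ISWI, 1 to 3 CHD and 0 to 2 INO80 and SRCAP genes. Without a variance trend 1420 genes were called, with 0 other SWI/SNF subunits (7 unadjusted), 1 ISWI and 1 CHD gene. Without the filter on low values 1 other SWI/SNF subunit and 1 CHD gene were called. Scaling by total count gave 1 ISWI, 1 CHD and 2 INO80 and SRCAP genes, moved the all-gene median from -0.01 to -0.08, and put 41.4% of the called genes higher in NA against 56.1%. With depth class as a covariate 1 CHD and 0 INO80 and SRCAP genes (4 unadjusted) were called, and with the GC trend removed 1 CHD gene. The cause of these shifts was not tested.

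The direction turned for Smarca4 (0.043) and Smarce1 (-0.066) with the GC trend removed, for Arid2 in the shallow libraries (0.16), without NA1 (0.071) and without WT1 (0.0056; lowest with 1 library left out -0.060), and for Chd4 in the shallow libraries (-0.068), without NA3 (-0.0071) and without WT3 (-6.03e-05). The log2 ratio difference of Smarcd1 to Smarcd2 ran from -0.14 (without NA1; -0.04 without WT4) to 0.11 with 1 library left out. For the other pairs this range was -0.32 to -0.14 (Smarca4 to Smarca2), 0.51 to 0.70 (Smarcc1 to Smarcc2) and 0.18 to 0.31 (Arid1a to Arid2).

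Same-numbered libraries had correlations of deviations from the group means of 0.0874, 0.0271, 0.0131 and 0.158. Libraries of unlike number had -0.0943 to 0.101. These correlations cannot settle whether replicate numbers pair the samples. With the replicate block 2004 genes were called, the 3 members called were the same, and 0 INO80 and SRCAP genes were called (4 unadjusted). For the ratios a block leaves 16 sign flips, whose smallest p is 0.125. The planned edgeR and DESeq2 fits were not run, because the deposited values are not counts. Depth limits Smarcd1, Smarcb1 and Smarcc1 most, whose counting error reached 9.81%, 8.64% and 8.48%.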
